A study of Homo sapiens with 12 samples.

Results

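The genes described here are 10 regulators of alternative splicing, MBNL1, MBNL2, MBNL3, CELF1, CELF2, ESRP1, ESRP2, RBFOX2, QKI and SRRM4. They were chosen by name with earlier results of these data known. Which contrast brought MBNL2 in is not stated; it was taken to be that of the untreated lines, given here as levels without a test, but the treated lines may have entered the choice too. Of the 10, 9 had a row with their symbol among the 17687 named genes tested, each with a single row, and ESRP2 is not analysed here. Expression was measured on 12 arrays from LNCaPabl-Abi and LNCaPabl-Enza, 2 epithelial sublines carrying the name of LNCaP, a human prostate cancer line; the meaning of the suffixes is not given in the labels. The day after seeding, each line received either the solvent DMSO (the groups Abi_Ctrl and Enza_Ctrl) or 100 nM dexamethasone, a synthetic glucocorticoid, for 24 h (Abi_Dex and Enza_Dex), with 3 arrays per group. Each line is a single cell line, so a difference between lines is one between these 2 lines alone. All levels are deposited log2 values, and every fold is on that scale.

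Alternative splicing regulators are RNA-binding proteins that decide which exons are kept in a messenger RNA. The muscleblind-like proteins encoded by MBNL1, MBNL2 and MBNL3 bind pyrimidine-GC-pyrimidine elements and are best known from myotonic dystrophy, where repeat RNA sequesters them, and the CELF proteins often act on the same exons in the opposite direction. ESRP1 and ESRP2 maintain the exon choices of epithelial cells, RBFOX2 and QKI favour many of the choices seen in mesenchymal cells, and SRRM4 drives the inclusion of neuronal microexons and is known from neuroendocrine prostate cancer. The arrays report 1 value per gene, so they give the amount of regulator RNA and no exon choice.

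The DNA just before the MBNL2 starts is shown because MBNL2 carries the largest difference among these genes, and the most upstream MBNL3 start because MBNL3 was low in the same line. The sequences are from RefSeq (GRCh38.p14), which gave windows for 6 of the 10 genes, MBNL1, MBNL2, MBNL3, CELF1, CELF2 and SRRM4. The 250 bases before each start are written 5′ to 3′ on the gene's strand, and capitals mark CG dinucleotides and each 7-base match to TGANTCA, the AP-1 motif. The MBNL2 windows are on the plus strand at chr13:97141584-97141833 (start 1) and chr13:97222083-97222332 (start 2), and the MBNL3 window is on the minus strand at chrX:132490036-132490285.
MBNL2 start 1: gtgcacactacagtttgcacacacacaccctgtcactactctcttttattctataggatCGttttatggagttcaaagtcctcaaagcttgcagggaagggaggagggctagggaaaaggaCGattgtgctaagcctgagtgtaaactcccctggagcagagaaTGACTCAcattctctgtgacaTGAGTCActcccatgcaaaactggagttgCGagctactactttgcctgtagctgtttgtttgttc
MBNL2 start 2: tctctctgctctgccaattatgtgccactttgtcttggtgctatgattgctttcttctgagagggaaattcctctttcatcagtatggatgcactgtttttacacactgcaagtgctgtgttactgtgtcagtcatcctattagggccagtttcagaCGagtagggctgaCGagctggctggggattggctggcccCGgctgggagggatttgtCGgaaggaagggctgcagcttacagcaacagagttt
MBNL3 start 1: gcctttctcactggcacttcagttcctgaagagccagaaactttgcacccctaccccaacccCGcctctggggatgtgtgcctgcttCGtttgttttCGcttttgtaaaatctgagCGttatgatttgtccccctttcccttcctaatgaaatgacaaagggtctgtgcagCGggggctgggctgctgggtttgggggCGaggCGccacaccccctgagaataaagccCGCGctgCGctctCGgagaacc

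The MBNL2 windows held 3 and 4 CG dinucleotides and the MBNL3 window 11, against a median of 11 over the 35116 windows of all genes. As few as in the MBNL2 windows were found in 29.3% and 34.3% of all windows, so neither count is unusual. MBNL2 start 1 held 2 matches to TGANTCA, of which TGACTCA began 86 bases and TGAGTCA 65 bases before the start. At least 2 matches were found in 0.402% of all windows and at least 1 in 6.57%; this motif was looked up after the sequence had been seen, and a match is not a bound site. The glucocorticoid response element (a pair of inverted AGAACA half-sites with 3 free bases between them), its half-site AGAACA alone and the E-box CACCTG, each searched on both strands, were in neither MBNL2 window nor in the MBNL3 window shown; of the other 3 MBNL3 windows, that of start 4 held a half-site 227 bases before its start. They were found in 0.00285%, 12.4% and 17.5% of all windows, and the half-site lies within the full element. Among the other members, CELF1 starts 3 and 5 each held a half-site and CELF2 start 4 held 1 match to TGANTCA.

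Among the 12 arrays, Enza_Ctrl replicate 2 stood apart, with a median Pearson r of 0.855 with the other arrays where each of the others had 0.986 to 0.990. Its values were compressed, with an SD of 2.76 over all genes against 3.40 to 3.45, and 23 background control rows averaged 5.499 against 4.496 to 4.596. It lay outside the range of the other 11 arrays for 7 of the 9 regulators, below it for MBNL3, CELF1, ESRP1, RBFOX2 and QKI and above it for CELF2 and SRRM4, as it did for 75.8% of all genes. Results of the regulators that use Enza_Ctrl are therefore given with 12 arrays and again with the 11 left without it. For single genes on the further splicing and lineage lists, differences and SE are mostly those with 11. The 9 measured luminal prostate markers averaged 11.38 to 12.56 per array and the 8 fibroblast, 8 immune and 7 endothelial markers 4.21 to 5.00 on those 11 arrays. On Enza_Ctrl replicate 2 those last 3 lists averaged up to 5.87. The luminal average does not hold for each gene. KLK2 averaged 4.42 in Enza_Ctrl without replicate 2, under the background control rows, 5.56 in Enza_Dex and 6.43 in Abi_Dex. KLK3 averaged 7.32 in Enza_Dex and 8.62 in Abi_Dex.

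MBNL2 was low in LNCaPabl-Enza and high in LNCaPabl-Abi on every array. The 3 Abi_Ctrl arrays had MBNL2 levels of 11.73, 11.60 and 11.66, and the 3 Enza_Ctrl arrays 7.44, 7.80 and 8.38. With dexamethasone MBNL2 was at 11.28, 11.11 and 11.51 in Abi_Dex and at 8.12, 7.56 and 8.23 in Enza_Dex. The lowest of the 6 Abi arrays was thus 11.11 and the highest of the 6 Enza arrays 8.38, a gap wider than the range within either line (0.62 and 0.94). Enza_Ctrl replicate 2 fell inside the range of the other Enza arrays for this gene. In arrays of cell populations, fewer cells with MBNL2 RNA and less MBNL2 RNA per cell cannot be told apart.

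**Figure D1:**
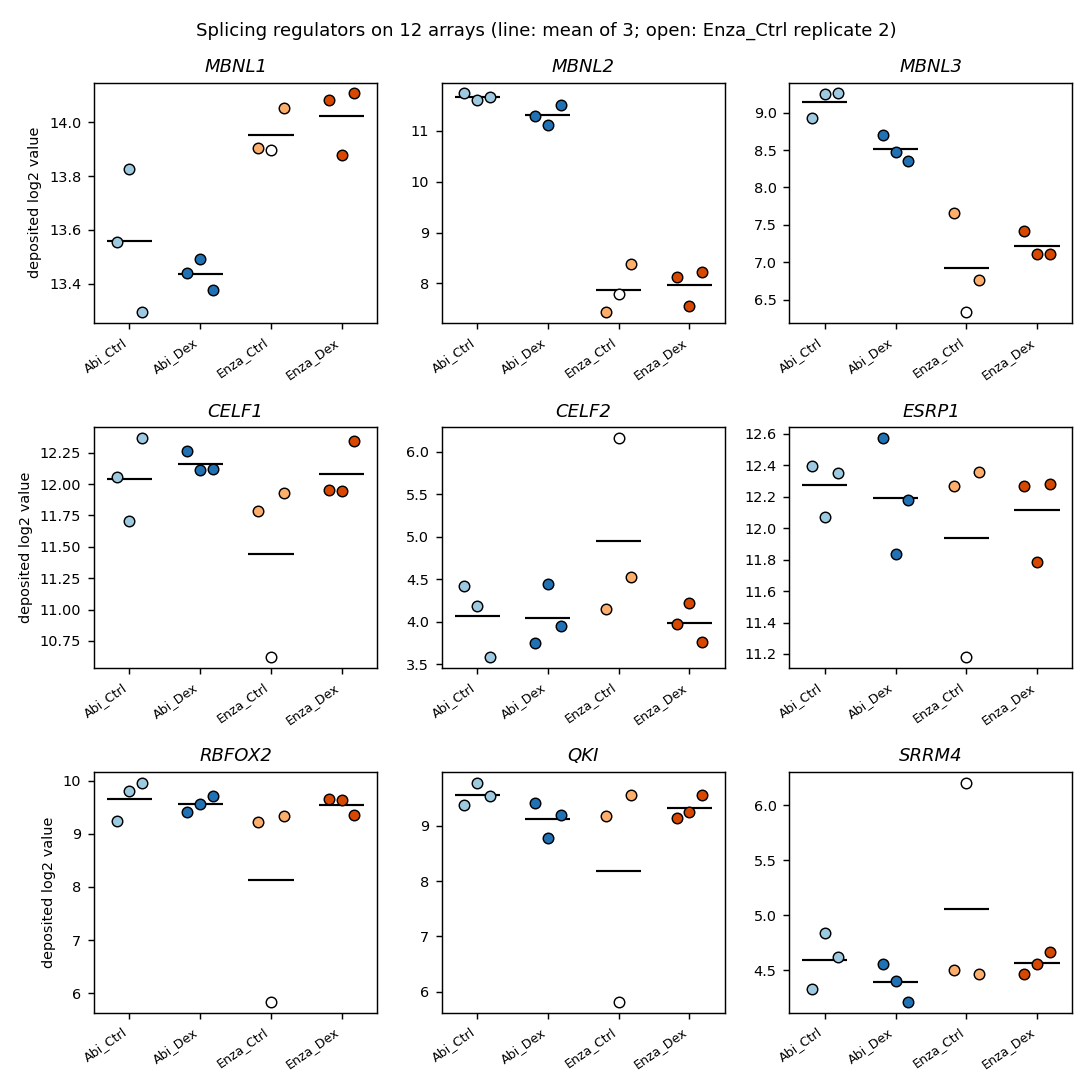
Deposited log2 values of the 9 measured splicing regulators, 1 panel per gene with its own vertical scale, on the 3 arrays of each group (points) with the group mean (line). The open point is Enza_Ctrl replicate 2. MBNL2 and MBNL3 are lower on all 6 Enza arrays than on all 6 Abi arrays and MBNL1 is higher; for RBFOX2 and QKI the open point lies far below, and for CELF2 and SRRM4 above, the other 11 arrays.

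In the treated arrays, a comparison that shares no array with the untreated one, MBNL2 was lower in LNCaPabl-Enza by a log2 difference of -3.33 ± 0.28 (SE; 95% interval -3.94 to -2.72), or 10.1-fold (limma, adjusted p = 0.00124 over all genes). The means were 7.97 ± 0.36 in Enza_Dex and 11.30 ± 0.20 in Abi_Dex (SD, n = 3 each). With the 11 arrays, where only the pooled spread differs, the SE was 0.24 and the adjusted p 2.31e-06. In the untreated arrays the difference, given as a description, was -3.79 ± 0.28 (SE), and -3.75 ± 0.27 with 11 arrays. Since MBNL2 may have been chosen with the treated arrays also in view, and the same 2 lines are compared, the p describes these arrays and is not independent evidence.

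MBNL3, a family member reported to inhibit muscle differentiation, was also lower in LNCaPabl-Enza. Its Abi_Dex levels were 8.70, 8.47 and 8.35 and its Enza_Dex levels 7.42, 7.11 and 7.11, so the treated groups did not overlap. The difference of -1.30 (2.45-fold lower) had an SE of 0.31 and an adjusted p of 0.192 by limma with 12 arrays, and an SE of 0.22 and an adjusted p of 0.00489 with 11. The call depends on how the spread is estimated: it was also made with only the 2 groups compared (adjusted p = 0.0023) and with array weights on all 12 arrays (0.000589). Enza_Ctrl replicate 2, with MBNL3 at 6.33, is outside this comparison and enters through the pooled spread. The untreated arrays had MBNL3 levels of 8.93, 9.25 and 9.26 in Abi_Ctrl and 7.66, 6.33 and 6.77 in Enza_Ctrl, which did not overlap either. That difference was -2.23 ± 0.31 (SE), or -1.93 ± 0.25 with 11 arrays.

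MBNL1, the family member best studied in muscle, was higher in LNCaPabl-Enza by a small margin. Its levels were 13.44, 13.49 and 13.38 in Abi_Dex and 14.08, 13.88 and 14.11 in Enza_Dex, again without overlap. The difference of 0.59 ± 0.20 (SE; 95% interval 0.14 to 1.03, unadjusted) did not pass over all genes (limma adjusted p = 0.739, and 0.131 with 11 arrays). With array weights in the fit, which count deviating arrays less, it passed at 0.58 (adjusted p = 0.0350). In the untreated arrays MBNL1 was at 13.56, 13.83 and 13.29 in Abi_Ctrl and at 13.91, 13.90 and 14.05 in Enza_Ctrl. Each of the 6 Enza arrays was above each of the 6 Abi arrays, the reverse of the order seen for MBNL2 and MBNL3.

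Over all 9 regulators, limma called 1 gene between the treated lines with 12 arrays and 2 with 11, all lower in LNCaPabl-Enza. The background was 0.277% of all genes called with 12 arrays and 2.28% with 11, of which those called lower made up 0.153% and 1.53%. As the choice of MBNL2 may have used this contrast, nothing is read from its count. The treated groups did not overlap for 3 of the 9 (MBNL1, MBNL2 and MBNL3), and for 20.1% of all genes. In the untreated lines the same count was 3 of 9, the same genes, against 14.2% of all genes with 12 arrays and 24% with 11. As this contrast was taken to be the one that brought MBNL2 in, nothing is read from that count. The median treated difference of the 9 genes was -0.06, beside -0.01 over all genes.

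**Figure D2:**
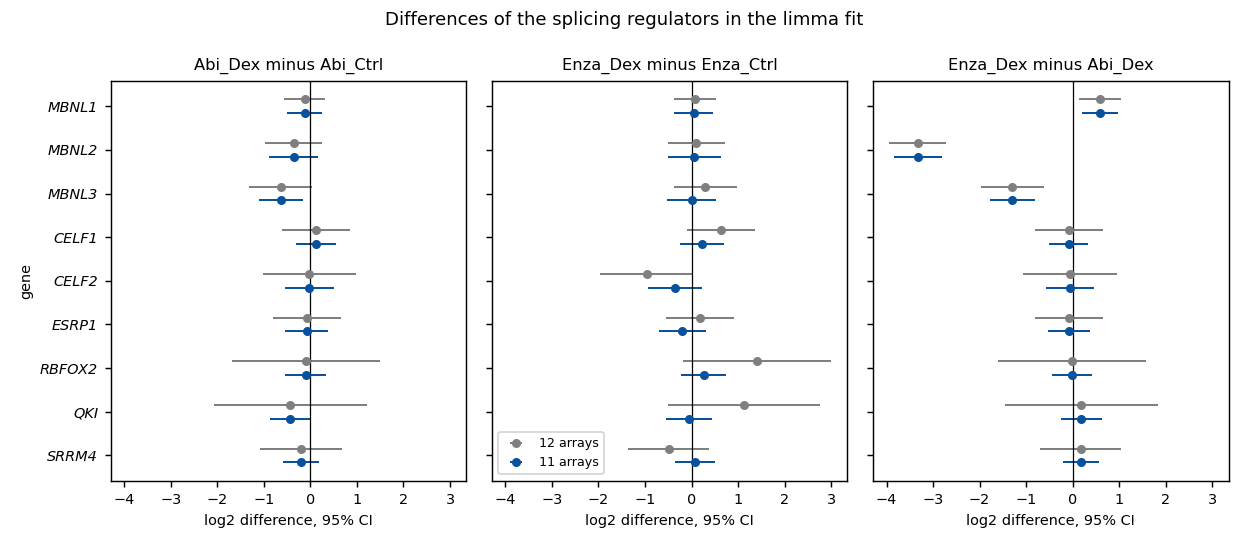
Log2 differences of the 9 regulators (points) with 95% confidence intervals from the limma fit (bars), for dexamethasone in each line and for the dexamethasone-treated lines, with 12 arrays (grey) and with the 11 left without Enza_Ctrl replicate 2 (blue). In the right panel the unadjusted intervals of MBNL2 (at -3.33), MBNL3 (-1.30) and MBNL1 (0.59) lie off 0, and the grey intervals of RBFOX2 and QKI are the widest.

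The levels of the epithelial regulator ESRP1 overlapped between the lines. ESRP1 was at 12.57, 11.84 and 12.18 in Abi_Dex and at 12.27, 11.79 and 12.28 in Enza_Dex. The difference of -0.08 had a 95% interval of -0.81 to 0.65 with 12 arrays and -0.54 to 0.37 with 11 (adjusted p = 1.00 and 0.949). In the untreated arrays ESRP1 was at 12.40, 12.07 and 12.35 in Abi_Ctrl and at 12.27, 11.18 and 12.36 in Enza_Ctrl, where the low value is replicate 2. No neighbouring pair of group means was separated without that array, so the order of the 4 groups cannot be told for ESRP1.

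RBFOX2, whose protein binds UGCAUG elements beside exons, was at 9.40, 9.57 and 9.72 in Abi_Dex and at 9.65, 9.64 and 9.35 in Enza_Dex. Its treated difference was -0.02, with an interval of -1.60 to 1.57 with 12 arrays and -0.45 to 0.42 with 11. QKI, which encodes the RNA-binding protein quaking, was at 9.42, 8.77 and 9.20 in Abi_Dex and at 9.14, 9.25 and 9.55 in Enza_Dex. The QKI difference of 0.19 had an interval of -1.45 to 1.83 with 12 arrays and -0.26 to 0.63 with 11. For both genes the groups overlapped, and the wide intervals with 12 arrays go with a single value each in Enza_Ctrl replicate 2, 5.84 for RBFOX2 and 5.81 for QKI, while the other Enza_Ctrl arrays had 9.22 and 9.34 for RBFOX2 and 9.18 and 9.56 for QKI. The Abi_Ctrl arrays had 9.23, 9.80 and 9.95 for RBFOX2 and 9.38, 9.77 and 9.53 for QKI.

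The CELF genes and SRRM4 likewise overlapped between the treated lines. CELF1, which binds GU-rich RNA and opposes MBNL proteins on many exons, was at 12.26, 12.11 and 12.12 in Abi_Dex and at 11.95, 11.95 and 12.35 in Enza_Dex, a difference of -0.08 (95% interval -0.50 to 0.34 with 11 arrays). CELF2 ranged from 3.75 to 4.44 in Abi_Dex and from 3.77 to 4.22 in Enza_Dex, with a difference of -0.06 (-0.58 to 0.46). SRRM4 ranged from 4.21 to 4.55 in Abi_Dex and from 4.46 to 4.67 in Enza_Dex, with a difference of 0.17 (-0.21 to 0.56). Both genes lay near the background control rows (4.496 to 4.596 on those arrays), so neither was shown to be above background and their differences are not read as expression. Apart from Enza_Ctrl replicate 2, with 6.16 for CELF2 and 6.20 for SRRM4, no array exceeded 4.53 for CELF2 or 4.84 for SRRM4. The adjusted p of CELF1, CELF2 and SRRM4 ran from 0.821 to 0.973 by limma with 11 arrays. The 5 measured neuroendocrine markers, a cell state in which SRRM4 is known to be high, averaged 3.67 to 4.85 per array over those arrays. One of them, NCAM1, was higher and varied widely in Abi_Dex, at 5.59 ± 1.59 against 3.69 ± 0.38 in Enza_Dex (SD, n = 3 each).

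Dexamethasone in LNCaPabl-Abi left none of the 9 regulators past the threshold by limma (0 called with 12 or 11 arrays), while 0.0283% of all genes were called with 12 arrays and 0.141% with 11. At an unadjusted p under 0.05 stood 0 of the 9 with 12 arrays and 1 with 11, MBNL3, beside 241 and 1254 of all 17687 genes. MBNL3 was at 9.15 ± 0.18 in Abi_Ctrl and at 8.51 ± 0.18 in Abi_Dex (SD, n = 3 each), a difference of -0.64 with an SE of 0.31 and, with 11 arrays, of 0.22 (adjusted p = 1.00 and 0.583). MBNL2 was at 11.66 ± 0.07 and 11.30 ± 0.20 in the same groups, a difference of -0.36 ± 0.28 (SE, adjusted p = 1.00). The 2 groups did not overlap for MBNL2 and MBNL3, 2 of the 9 regulators, and for 12.3% of all genes. QKI had a difference of -0.43 ± 0.75 (SE) with 12 arrays and ± 0.21 with 11, and its groups overlapped. In all, 8 of the 9 differences were negative with a median of -0.12, beside 0.00 over all genes, of which 50.4% were positive. The negative ones include CELF2 and SRRM4, which lay near background. The signs of CELF1, CELF2, ESRP1, MBNL1 and RBFOX2 turned when single arrays were left out, and none of the 9 passed. The response of the line itself is seen in TMPRSS2, an androgen-responsive protease gene on the luminal list. It rose by 2.19 ± 0.20 (SE, 11 arrays, limma adjusted p = 6.55e-05, and 0.0167 with 12). It was the 1 called gene of the 9 measured on that list. Of those 9, 7 differences were positive and 2 negative, from -0.47 to 2.19 with a median of 0.50. The luminal list, TMPRSS2 included, averaged 11.38 to 11.79 per array in Abi_Ctrl and 12.17 to 12.56 in Abi_Dex. Its part in the differences of the 9 regulators was not tested.

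In LNCaPabl-Enza, limma called 0 of the 9 regulators and 0% of all genes for dexamethasone with either 12 or 11 arrays. No regulator had an unadjusted p under 0.05, against 700 of all genes with 12 arrays and 530 with 11. MBNL2 was at 7.87 ± 0.48 in Enza_Ctrl and at 7.97 ± 0.36 in Enza_Dex (SD, n = 3 each), a difference of 0.10 with a 95% interval of -0.51 to 0.71. With 11 arrays the MBNL2 difference was 0.06, with an interval of -0.52 to 0.64. The differences of RBFOX2 (1.41 ± 0.72, SE), QKI (1.13 ± 0.75) and CELF2 (-0.96 ± 0.46) with 12 arrays became 0.27 ± 0.23, -0.06 ± 0.23 and -0.36 ± 0.27 with 11. Leaving out the single array thus removed most of each difference and turned the sign of QKI. The groups did not overlap for CELF1 and RBFOX2, 2 of the 9 regulators, with both sets of arrays. Of all genes 8.74% showed this with 12 arrays and 15.9% with 11. The margins were thin: the lowest Enza_Dex and highest Enza_Ctrl levels were 11.95 and 11.93 for CELF1 and 9.350 and 9.341 for RBFOX2. The CELF1 difference was 0.63 ± 0.33 (SE) with 12 arrays and 0.22 ± 0.22 without Enza_Ctrl replicate 2.

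The responses of the lines were compared directly through the interaction term, and limma called 0 of the 9 and 0% of all genes, with 12 and with 11 arrays. MBNL3 had the smallest unadjusted p of the 9, with a response higher in LNCaPabl-Enza by 0.93 ± 0.44 (SE, adjusted p = 0.793), or 0.64 ± 0.34 with 11 arrays (adjusted p = 0.999). For MBNL2 the term was 0.46 ± 0.39 (SE), with an interval of -0.40 to 1.32, and 0.42 ± 0.36 with 11 arrays. After quantile normalization anew it was 0.013. These terms share their DMSO arrays with the comparison of the untreated lines. At an unadjusted p under 0.05 stood 266 of all genes with 12 arrays and 566 with 11, and 0 of the 9 with either set.

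Ordered by group mean without Enza_Ctrl replicate 2, MBNL2 and MBNL3 followed the same sequence, Abi_Ctrl above Abi_Dex above Enza_Dex and Enza_Ctrl, of which the last pair overlapped. For MBNL1 both Enza groups stood above both Abi groups, and within each line the groups overlapped. For CELF1, CELF2, ESRP1, QKI and SRRM4 every neighbouring pair of groups overlapped. For RBFOX2 the one neighbouring pair without overlap was Enza_Dex and Enza_Ctrl, by a thin margin (9.350 against 9.341). Groups further apart in the order could still be separate. Enza_Ctrl lay below Abi_Dex for RBFOX2 and CELF1, and below Enza_Dex for CELF1. Over the 11 arrays the level of MBNL3 had a Pearson r of 0.91 with that of MBNL2, and MBNL1 of -0.83. The arrays fall into separate clusters by line, so these values describe the difference between the lines. Within the 6 Abi arrays they were 0.65 and 0.13. Those arrays span Abi_Ctrl and Abi_Dex, which did not overlap for MBNL2 and MBNL3, so the 0.65 also reads the gap between treatments. It does not show that these genes vary together within a group.

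The genes with the pattern most like MBNL2, by Pearson r of the levels over the 11 arrays, were H2AJ (a histone H2A variant, r = 0.993), GPX8 (a glutathione peroxidase of the endoplasmic reticulum, 0.985), EFNA5 (an ephrin ligand, 0.984), RCN1 (a calcium-binding protein of the secretory pathway, 0.982) and ARID5B (a DNA-binding protein, 0.982). All 11 arrays share 1 platform and 1 normalization, and the r again reads the gap between the lines. H2AJ ran from 10.08 to 10.85 over the 6 Abi arrays and from 6.76 to 7.60 over the 5 Enza arrays. EFNA5 had a median of 11.51 in the Abi arrays and 6.72 in the Enza arrays. Within the 6 Abi arrays the r of these 5 genes with MBNL2 ran from -0.12 (RCN1) to 0.46 (H2AJ). By Spearman rho 0 of the 5 were among the first 5, and by r over all 12 arrays 2 were.

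The lowest r belonged to MMP16, a membrane-bound matrix metalloproteinase (-0.989), ATP1B1, the beta subunit of the sodium-potassium pump (-0.977), and CD163L1, a scavenger receptor (-0.973). MMP16 ran from 4.43 to 6.04 over the Abi arrays and from 10.21 to 10.73 over the 5 Enza arrays, so it was high where MBNL2 was low. ATP1B1 had medians of 9.84 and 13.03 in these arrays.

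**Figure D3:**
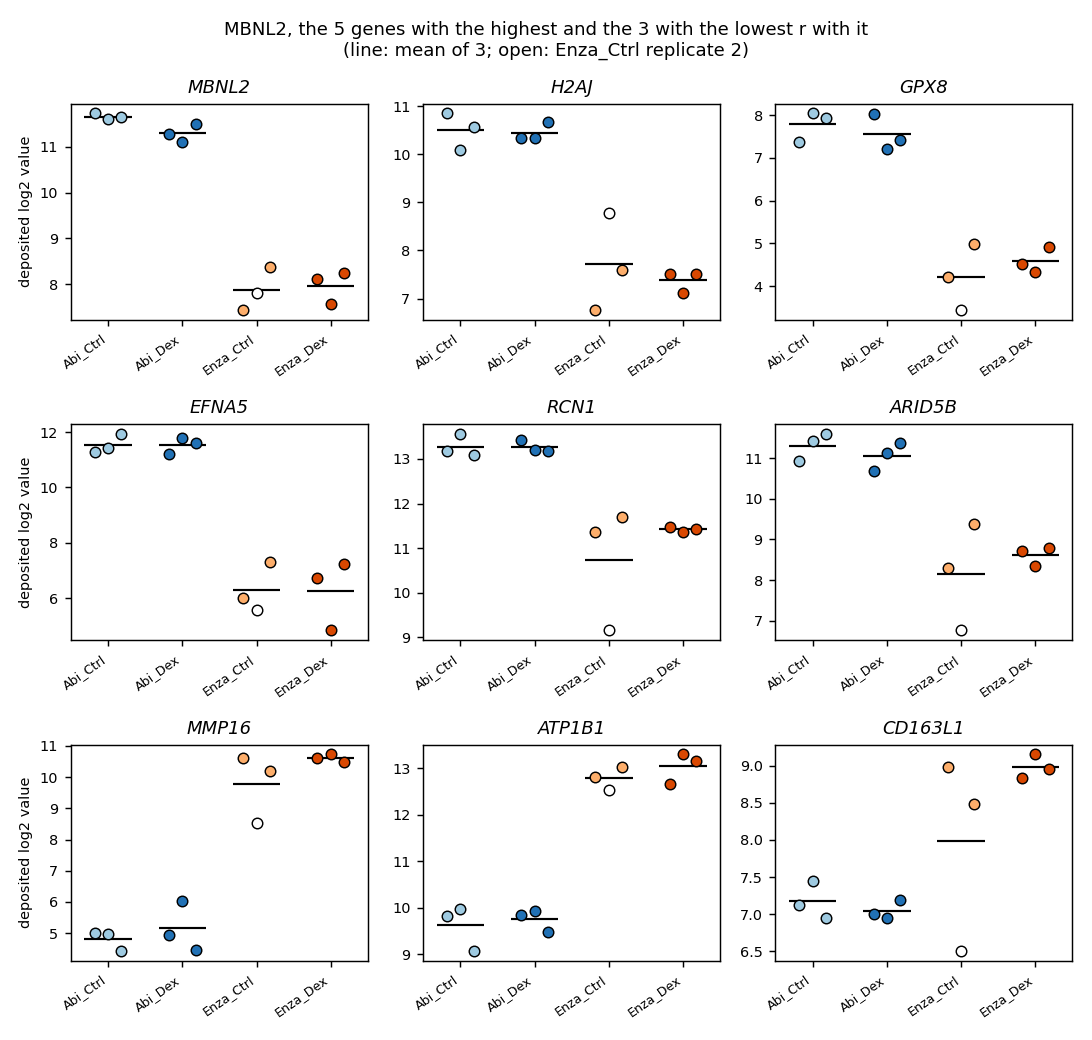
Deposited log2 values of MBNL2, of the 5 genes with the highest and of the 3 genes with the lowest Pearson r with it, on the 3 arrays of each group (points) with the group mean (line), each panel with its own vertical scale. The open point is Enza_Ctrl replicate 2, which was not used for r. Among the 11 filled points the Abi and Enza arrays form separate levels in each panel, such as 10.08 to 10.85 and 6.76 to 7.60 for H2AJ; the open point lies at 8.78 for H2AJ and, for CD163L1, at 6.50 below the Abi arrays.

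None of the measured genes beside MBNL2 on chromosome 13 was called between the treated lines. The 3 nearest protein-coding genes with a named row on either side, in RefSeq order, are UGGT2, HS6ST3, OXGR1, RAP2A, IPO5 and RNF113B, and their treated differences ran from -0.37 (RAP2A, 0.19 SE) to 0.23 (OXGR1, 0.17 SE), with 0 of the 6 called by limma and a smallest adjusted p of 0.491, with 11 arrays. Beside MBNL3 on chromosome X, the next gene HS6ST2, which encodes a heparan sulfate sulfotransferase, was lower in Enza_Dex by -0.96 ± 0.24 (SE, limma adjusted p = 0.0464 with 11 arrays; 1.00 with 12). The other 5 neighbours, STK26, FRMD7, RAP2C, USP26 and TFDP3, ran from -0.49 to 0.20 and were not called. HS6ST3, OXGR1, RNF113B, FRMD7 and USP26 had means under the background control rows in both groups. These neighbours were chosen by position after the MBNL2 result was known. Over all genes limma called 0.277% with 12 arrays and 2.28% with 11.

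No other splicing factor on the lists examined passed the test between the treated lines. Over all genes limma called 0.277% with 12 arrays and 2.28% with 11. With lists this short, 0 calls are near that share and say little about splicing factors. Of 13 measured SR proteins, which bind exonic enhancers, limma called 0 higher and 0 lower with either set of arrays, and 10 had a positive difference with a median of 0.15. Of 20 measured hnRNP and PTB proteins, which often silence exons, 0 were called and 15 were positive with a median of 0.14. Of 26 further tissue-restricted regulators 0 were called, with a median of 0.03. The members with the largest differences were SRSF11 (0.33 ± 0.18, SE, 11 arrays) and SRSF7 (0.30 ± 0.18), PTBP2, the neuronal PTB protein (0.39 ± 0.20), and HNRNPR (0.34 ± 0.19), and RBPMS (-1.19 ± 0.59) and the muscle regulator RBM24 (0.81 ± 0.36). RBPMS and RBM24 varied within groups, with an RBPMS level of 6.21 ± 0.90 in Enza_Dex and 7.40 ± 0.80 in Abi_Dex (SD, n = 3 each). Their adjusted p by limma with 11 arrays were 0.484 and 0.401. With 12 arrays the SE were wider, such as 0.62 for SRSF7 and 0.42 for PTBP2.

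**Figure D4:**
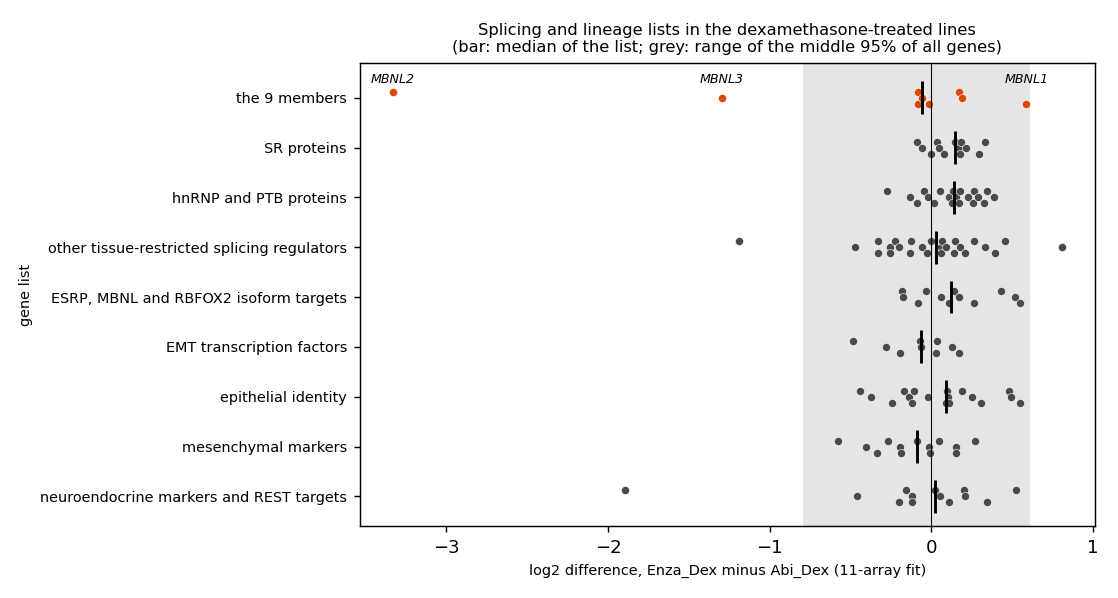
Log2 differences between the dexamethasone-treated lines (Enza_Dex minus Abi_Dex, 11-array fit) for each measured gene (points) of the 9 regulators and of 8 further lists, with the median of each list (bar). The grey band spans the middle 95% of all genes, -0.79 to 0.61. MBNL2 and MBNL3 lie outside it, while of the 123 genes on the other lists RBM24, RBPMS and NCAM1 do.

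Genes whose exons are known targets of ESRP, MBNL or RBFOX proteins were measured at the gene level, which does not show their isoforms. Of 12 measured, limma called 0, and the largest treated differences were those of the insulin receptor INSR (0.55 ± 0.24, SE, 11 arrays) and of BIN1, a membrane-curving protein (0.52 ± 0.19, adjusted p = 0.265). The 9 transcription factors of epithelial to mesenchymal transition, among them the ESRP1 repressor ZEB1 (-0.49 ± 0.29), had 0 calls and a median of -0.06. The 18 epithelial identity genes had 0 calls and a median of 0.09, led by the keratin KRT19 (0.55 ± 0.37) and the transcription factor ELF3 (0.49 ± 0.27). The 13 measured mesenchymal genes had 0 calls and a median of -0.09, led by fibronectin FN1 (-0.58 ± 0.70) and S100A4 (-0.40 ± 0.26). The 13 measured neuroendocrine genes had 0 calls, a median of 0.02 and the largest difference in NCAM1, a neural adhesion molecule (-1.90 ± 0.74, adjusted p = 0.296), followed by STMN2 (0.52 ± 0.26). ZEB1, FOXC2 and STMN2 had means under the background control rows in both groups, and S100A4 and NCAM1 in Enza_Dex, so the sizes of these differences are not read as fold changes of RNA. Over all genes the median treated difference was -0.01, and limma called 0.277% with 12 arrays and 2.28% with 11. The 0 calls on these short lists are near that share.

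Dexamethasone likewise called none of the 123 genes on these 8 lists by limma, in either line and with 12 or 11 arrays, while 10 in LNCaPabl-Abi and 7 in LNCaPabl-Enza had an unadjusted p under 0.05 with 11, beside 1254 and 530 of all 17687 genes. In LNCaPabl-Abi 11 of 13 SR proteins had a negative difference (median -0.15, largest SRSF7 at -0.35 ± 0.18, SE), and 17 of 20 hnRNP and PTB proteins (median -0.18, largest HNRNPLL at -0.48 ± 0.23). The Abi_Dex arrays also enter the comparison of the treated lines, with the opposite sign, so the 2 sets of signs are not separate results. Over all genes 50.4% of the differences were positive here and 48.6% between the treated lines. Genes of a list can vary together, so these counts were not tested. The largest differences on the other lists there were RBM24 at 0.74 ± 0.36, the growth factor receptor FGFR2, whose exon choice ESRP1 controls, at -0.76 ± 0.29, SNAI1 at 0.27 ± 0.24, the tight junction gene CLDN4 at 0.93 ± 0.33, ITGA5 at 0.51 ± 0.25 and REST, the repressor of neuronal genes, at -0.45 ± 0.19. FGFR2 was at 7.38 ± 0.15 in Abi_Ctrl and 6.62 ± 0.04 in Abi_Dex (SD, n = 3 each; adjusted p = 0.626).

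In LNCaPabl-Enza with 11 arrays, the SR proteins had 12 of 13 negative differences (median -0.07, largest SRSF12 at -0.20 ± 0.24, SE). With 12 arrays the sign of the SR median turned to 0.25, and that of the hnRNP and PTB proteins went from -0.01 with 11 to 0.26. The largest differences with 11 arrays on the other lists were HNRNPH1 at 0.25 ± 0.20, MSI1 at -0.55 ± 0.26, LDB3 at -0.46 ± 0.27, ZEB1 at -0.74 ± 0.33, KRT19 at 0.96 ± 0.41, S100A4 at -0.57 ± 0.29 and SCG2 at -0.60 ± 0.22, each with an adjusted p of 1.00. Of these, MSI1, LDB3, ZEB1 and SCG2 had group means under the background control rows (4.496 to 4.596) in both groups and S100A4 in Enza_Dex, so the sizes of these differences are not read as fold changes of RNA. With 12 arrays KRT19 was at 1.94 ± 0.72 (SE) and S100A4 at -0.94 ± 0.37, while LDB3 was at -0.14 ± 0.33 and SCG2 at -0.39 ± 0.26.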

How the data were processed

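Total RNA was measured on 12 single-colour arrays with biotin-labelled target, as the labels state. The values the authors deposited are log2 values; Affymetrix Expression Console, RMA and limma are listed in the submitters' processing notes. Their range of 1.66 to 18.6 is wide for RMA alone, so folds can exceed the change in RNA. Neither summarisation options nor a genome build were given in the sources used here. The number of arrays limits the precision.

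Groups came from the titles. Symbols came from the platform annotation (17709 rows with 1 symbol, 6642 with none), and the brightest row per symbol was kept, leaving 17687 genes. limma 3.58.1 in R 4.3.3 (lmFit, eBayes) fitted 4 group means on all genes, with Benjamini-Hochberg adjustment and calls at an adjusted p under 0.05. Whether replicates were separate cultures is not labelled; p-values then measure only the spread of these arrays, which may be technical. The script was tested on simulated data.

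Members and lists were chosen with earlier results of these data known. The text names the members, the 5 genes with the highest and 3 with the lowest r with MBNL2 (Y-linked genes left out), and from each list the called genes or otherwise the 1 (dexamethasone) or 2 (treated lines) with the largest difference without Enza_Ctrl replicate 2. Alternatives were each array left out, a replicate block, only the groups compared, other scaling, a filter on dim genes, trend with robust eBayes, array weights and the mean of a symbol's rows.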

Additional observations from a re-analysis of the deposited data

How the results depend on the processing

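In the treated lines the MBNL2 difference stayed past the threshold under all 20 alternatives, between -3.46 and -3.12 (limma adjusted p from 5.49e-08 to 0.0126). The number of regulators called there was 1, and became 2 with only the 2 groups compared (MBNL3 adjusted p = 0.0023) and 3 with array weights (MBNL3 0.000589, MBNL1 0.0350); over single arrays left out it ran from 1 to 2. MBNL3 kept its direction in all 20 and passed in 3. Leaving out a DMSO array, the replicate block and only the 2 groups compared left the differences of MBNL2 and MBNL3 unchanged. So did the dim filter, trend with robust eBayes and the mean of a symbol's rows. Those settings could alter only the spread or the adjustment, so they do not test size or direction. MBNL2 may also have been chosen with this contrast in view. In the other comparisons no alternative called a regulator. The number of regulators without overlap in the untreated lines ran from 3 to 5 with single arrays left out.

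In the difference between the responses, MBNL2 went from 0.46 to 0.013 with quantile normalization anew. Signs turned for uncalled genes, and the cause was not tested. In LNCaPabl-Enza with quantile normalization anew, ESRP1 was at -0.11, MBNL1 at -0.091 and MBNL2 at -0.32; with arrays centred on the median MBNL1 was at -0.016; with array weights ESRP1 was at -0.17, MBNL3 at -0.016, QKI at -0.015 and SRRM4 at 0.045. In the treated lines, centring gave CELF2 0.021 and RBFOX2 0.063, and weights RBFOX2 0.023. In the difference between the responses ESRP1 was at -0.054 (quantile) and -0.044 (weights), and SRRM4 at 0.15 (weights). Over single arrays left out, differences in LNCaPabl-Abi ran from -0.046 to 0.29 (CELF1), -0.26 to 0.16 (CELF2), -0.27 to 0.10 (ESRP1), -0.26 to 0.011 (MBNL1) and -0.32 to 0.044 (RBFOX2). In LNCaPabl-Enza they ran from -0.20 to 0.39 (ESRP1), -0.12 to 0.35 (MBNL2), -0.056 to 1.82 (QKI) and -0.79 to 0.079 (SRRM4). In the treated lines they ran from -0.21 to 0.14 (CELF2), -0.26 to 0.11 (ESRP1) and -0.095 to 0.082 (RBFOX2), and in the difference between the responses from -0.12 to 0.47 (ESRP1) and -0.58 to 0.28 (SRRM4).

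The replicate numbers were not taken as pairs, since the labels do not say that they pair arrays. The deviations of same-numbered arrays from their group means correlated above 0.1 in 5 of 12 cases (r 0.0040 to 0.30). All 12 were positive, however, and in 18 of 24 comparisons of an array with another group the best match had its own number. This hint of shared replicate effects comes from the data and not from the design. With the replicate block, 1 regulator was called in the treated lines (MBNL2, adjusted p = 0.00523) and 0 elsewhere, while the calls over all genes went from 49 to 56 in the treated lines and from 5 to 4 in LNCaPabl-Abi.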
